A study of Mus musculus with 10 samples.

Results

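The 38 Hox genes analysed here are the gene models whose symbol names a gene of Hox cluster A, B, C or D, out of 42465 gene models in the deposited expression table. Cluster A holds 10 of them, cluster B 10, cluster C 9 and cluster D 9. They were measured by RNA sequencing in explants of the mouse neural tube that contained neural crest cells, taken from embryos at embryonic day 9.5 and grown as cultures for 4 days. The medium held 10% FBS and 20 nM EDN3 (endothelin 3, the ligand of the receptor Ednrb). Both genotypes, WT and Ednrb-/-, received the same medium, and each has 5 libraries called biological replicates. The type of Ednrb allele, the strain, the axial level of the dissected segment and any pooling of embryos were not stated in the sources read. Values are FPKM, fragments scaled to the length of the gene model and to the depth of the library, so levels can be compared between genes.

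Hox genes encode homeodomain transcription factors and lie in 4 clusters that arose by duplication, so that genes at the same place in each cluster form a paralogous group with a shared number. Low-numbered genes at the 3′ end of a cluster are switched on early and reach forward into the hindbrain, whereas high-numbered genes at the 5′ end are switched on late and are expressed only towards the tail. Which Hox genes a stretch of neural tube expresses, and above all the highest-numbered gene still present, is therefore a readout of its place along the body axis. In the coordinates of the deposited table, which follow the assembly of strain C57BL/6NJ, the models of cluster A span chromosome 6 from 52528565 to 52641221 on the minus strand. Those of cluster B span chromosome 11 from 101582476 to 101764753, those of cluster C chromosome 15 from 109047774 to 109168505 and those of cluster D chromosome 2 from 77216639 to 77320646, all on the plus strand.

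The clusters also encode microRNAs, which are shown here because their host position ties them to the genes described below. Matches to 2 of their seeds were looked for in Hox transcripts. The mature sequences are those of RefSeq on GRCm38.p6, written 5′ to 3′ with the seed, bases 2 to 8, in capitals. The miR-10 pair shares 1 seed and the miR-196 pair shares another.
miR-10a-5p: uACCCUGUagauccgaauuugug
miR-10b-5p: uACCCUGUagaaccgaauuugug
miR-196a-5p: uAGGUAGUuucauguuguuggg
miR-196b-5p: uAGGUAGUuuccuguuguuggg
miR-615-3p: uCCGAGCCugggucucccucuu
A match to the miR-196a-5p seed (ACTACCT) was found in the annotated GENCODE M21 transcripts of 11 of 39 Hox genes, among them Hoxb6, Hoxb7, Hoxb8 and Hoxc8. A match to the miR-10a-5p seed (ACAGGGT) was found in 7 of 39, among them Hoxa3, Hoxb3, Hoxb5 and Hoxc4. The Hoxb8 transcript holds a stretch of 22 bases of which 21 match the exact complement of miR-196a-5p, in the 3′ UTR in exon 2, at chr11:96284888-96284909 on the plus strand of mm10. Its 1 differing base lies opposite the seed, so this stretch is not the ACTACCT match counted above. It is printed with its matching bases in capitals.
Hoxb8 site: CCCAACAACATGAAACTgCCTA
These matches describe the letters of the transcripts and were not measured as sites of action. The share of all genes with such a match was not counted, so the counts do not set Hox genes apart.

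Ednrb, the targeted gene, was measured first as a check of the labels. It stood at 55.6, 55.5, 45.8, 43.8 and 60.7 FPKM in WT replicates 1 to 5 and 5.89, 11.7, 7.83, 8.01 and 2.35 FPKM in Ednrb-/- replicates 1 to 5, with no overlap between genotypes (exact two-sided permutation p = 0.00794, n = 5 and 5). Between 13022266 and 19532570 reads lay behind each library. WT replicate 2 stood apart from all other libraries in the most 5′ Hox genes and was the only library in which all 38 members reached 1 FPKM, so results that rest on it are also given without it. Markers of other cells also differed by genotype: 8 of 10 tested markers of neural crest, glia and melanoblasts and 10 of 10 tested markers of smooth muscle and mesenchyme fell in Ednrb-/- libraries, while 7 of 7 tested neuron markers rose. Over all genes tested, 13% fell and 6.53% rose. Ednrb itself is among the 10 crest markers and the 8 that fell, and as the targeted gene it adds no support to that count. In bulk RNA, fewer cells of a type and less RNA per cell cannot be told apart.

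The Hox genes that rose in Ednrb-/- explants lay in paralogous groups 2 to 6, and those that fell lay in groups 10 to 12. Of 34 members that passed the filter on low values, which asked for 0.5 FPKM or more in 5 or more of the 10 libraries, 11 rose and 5 fell at an adjusted p under 0.05 in limma, and 18 were not called. Over all 15156 genes tested, 6.53% rose and 13% fell. The genes that rose were Hoxa2, Hoxa3, Hoxa5, Hoxb3, Hoxb4, Hoxb5, Hoxb6, Hoxc4, Hoxc5, Hoxd3 and Hoxd4. Those that fell were Hoxa11, Hoxc11, Hoxc12, Hoxd10 and Hoxd11. In 9 of the 34 tested members every Ednrb-/- library lay above every WT library, against 4.78% of all genes tested. In Hoxb3, which is among the 9, WT replicate 3 and Ednrb-/- replicate 2 both stood at 16.59 FPKM to the second decimal. Of the genes that rose, the genotypes overlapped in Hoxb5 and Hoxb6. The opposite separation, which 8.44% of all genes tested showed, was found among the members for Hoxc12 and for the untested Hoxc13.

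By paralogous group, 10 of 14 members of groups 1 to 5 rose and 0 fell, with a median log2 fold change of 0.81. Of the 12 members of groups 6 to 9, Hoxb6 rose and 11 were not called, with a median of -0.20. For all genes tested the median was 0.0048, and for the 78 tested models of the 172 other models in the homeobox family column of the table it was 0.20, with 10 higher and 9 lower. Of the 12 members of groups 10 to 13, 5 fell and 3 were not called, and 4 (Hoxa13, Hoxb13, Hoxc13 and Hoxd13) were too low to test. Hoxc11, Hoxc12, Hoxa11, Hoxd11 and Hoxd12 passed the filter mainly through WT libraries, which bound them to differ, so this last count describes the members and supports nothing beyond each gene's own values.

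**Figure D1:**
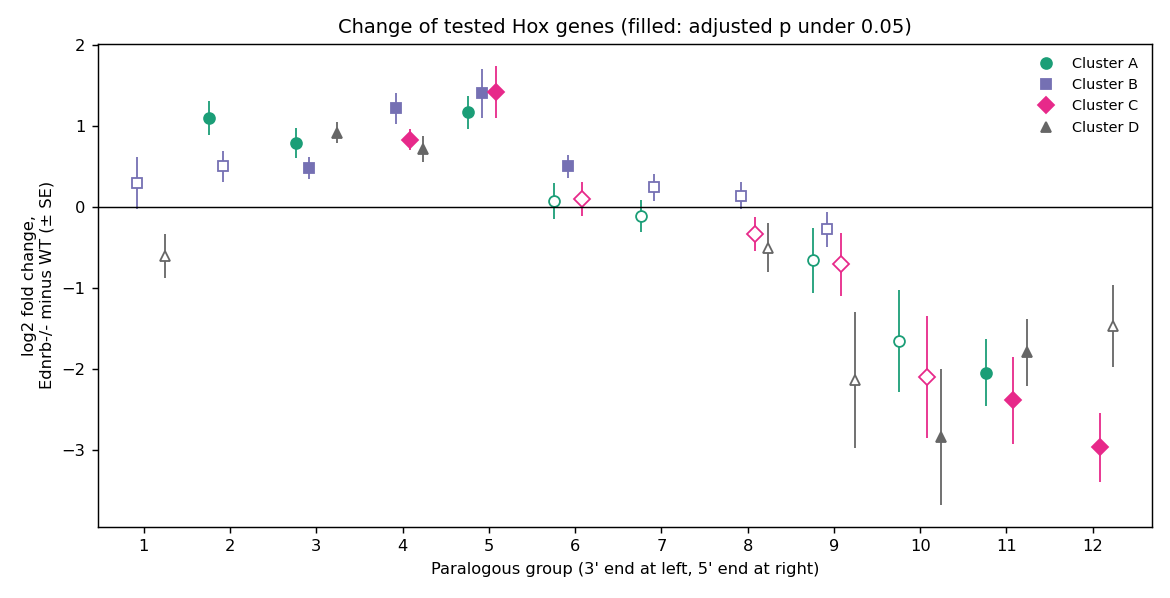
Log2 fold change of the tested Hox genes reported singly (on the log2(FPKM + 0.5) scale, above 0 where Ednrb-/- is higher, bars ± SE, 5 libraries per genotype) against paralogous group, with clusters in different symbols and filled symbols for adjusted p under 0.05. Called values lie between 0.48 and 1.43 for groups 3 to 6 of the clusters and Hoxa2, and between -2.97 and -1.80 for groups 10 to 12; the 4 untested group 13 genes are not drawn.

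Cluster A showed the change from higher to lower within 10 genes. Hoxa2, a hindbrain gene needed for the identity of the second pharyngeal arch, measured 8.82, 14.1, 16.4, 12.8 and 17.4 FPKM in WT replicates 1 to 5 and 26.3, 39.4, 38.95, 21.01 and 27.1 FPKM in Ednrb-/- replicates 1 to 5 (log2 fold change 1.11, SE 0.21, adjusted p = 0.00555). Hoxa5, which patterns the neck and upper trunk, was the most abundant gene of the cluster at 50.4, 58.8, 87.1, 66.1 and 85.5 FPKM in WT replicates 1 to 5 and 125, 226, 185, 132 and 126 FPKM in Ednrb-/- replicates 1 to 5 (log2 fold change 1.17, SE 0.20, adjusted p = 0.00412). For both genes the lowest Ednrb-/- library exceeded the highest WT library, and Ednrb-/- replicates 2 and 3 were the highest. Hoxa3, which acts in the pharyngeal region, also rose (log2 fold change 0.79, SE 0.19, adjusted p = 0.0127), with 3.61 to 7.01 FPKM in WT and 7.49 to 11.6 FPKM in Ednrb-/- libraries. The deposited Hoxa3 model spans Hoxa5 (2834 bases), Hoxa6 (2417 bases) and a model without a symbol whose description names Hox-A4. How reads shared by these models were assigned is not stated, so the rise of Hoxa3 may not be separate from theirs.

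In the middle of cluster A no gene was called. Log2 fold changes of Hoxa6, Hoxa7 and Hoxa9 were 0.07, -0.12 and -0.66, with adjusted p values of 0.852, 0.726 and 0.283. Hoxa10, a gene of the lumbar region, measured 24.4, 24.1, 5.27, 20.9 and 8.34 FPKM in WT replicates 1 to 5 and 13.7, 2.35, 2.67, 10.3 and 1.06 FPKM in Ednrb-/- replicates 1 to 5. Its genotypes overlapped, since WT replicates 3 and 5 lay below Ednrb-/- replicates 1 and 4, and it was not called (log2 fold change -1.66, SE 0.63, adjusted p = 0.0905). Hoxa11, which acts at the level of the sacrum and in the limb, measured 5.33, 2.29, 2.45, 2.67 and 1.26 FPKM in WT replicates 1 to 5 and 0.309, 0, 0, 1.48 and 0.0514 FPKM in Ednrb-/- replicates 1 to 5 (log2 fold change -2.05, SE 0.42, adjusted p = 0.00712). Only Ednrb-/- replicate 4, at 1.48 FPKM, reached the lowest WT library at 1.26 FPKM. Hoxa13, the terminal gene, measured 0, 4.32, 0.0542, 0 and 0 FPKM in WT replicates 1 to 5 and 0.0861, 0, 0, 0 and 0 FPKM in Ednrb-/- replicates 1 to 5, so that WT replicate 2 was the only library above 0.1 FPKM. A count of 0 reads allows up to 0.0698 to 0.0981 FPKM of Hoxa13 (3 reads, counting error only), depending on the library.

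Cluster B was the most abundant cluster in every library, with a summed level of 570.6 to 822.8 FPKM in WT and 740.9 to 976.6 FPKM in Ednrb-/- explants. It held no gene that fell. Hoxb3 measured 11.2, 15.03, 16.6, 11.8 and 12.2 FPKM in WT replicates 1 to 5 and 17.03, 16.6, 20.6, 16.8 and 23.2 FPKM in Ednrb-/- replicates 1 to 5 (log2 fold change 0.48, SE 0.13, adjusted p = 0.0275). Hoxb4, a gene whose anterior limit lies within the hindbrain, measured 19.3, 15.4, 23.2, 22.1 and 24.3 FPKM in WT replicates 1 to 5 and 33.6, 53.1, 56.6, 40.02 and 67.1 FPKM in Ednrb-/- replicates 1 to 5 (log2 fold change 1.22, SE 0.19, adjusted p = 0.0031). Hoxb4 was higher in every Ednrb-/- library than in any WT library. For Hoxb3 this held only beyond the second decimal, since WT replicate 3 and Ednrb-/- replicate 2 both stood at 16.59 FPKM. The call of Hoxb3 was lost when any of 5 single libraries was left out (adjusted p 0.0549 to 0.0719).

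Hoxb5, which patterns the lower hindbrain and neck and is active in vagal neural crest, measured 26.4, 32.6, 37.4, 34.1 and 62.2 FPKM in WT replicates 1 to 5 and 82.8, 174, 132, 51.9 and 94.3 FPKM in Ednrb-/- replicates 1 to 5 (log2 fold change 1.41, SE 0.31, adjusted p = 0.00949). The genotypes touched at WT replicate 5, which at 62.2 FPKM lay above Ednrb-/- replicate 4 at 51.9 FPKM. Hoxb6 rose by less (log2 fold change 0.51, SE 0.14, adjusted p = 0.0287), from 72.7 to 101 FPKM in WT to 93.6 to 154 FPKM in Ednrb-/- libraries, and its call did not hold in 9 of 20 alternative analyses. Hoxb5 and Hoxb6 lie within the span of the antisense model Hoxb5os, and whether counting used strand is not stated. Hoxb5os itself was not called (log2 fold change 0.09, adjusted p = 0.767). The remaining 3′ genes Hoxb1 and Hoxb2 were not called (log2 fold changes 0.29 and 0.50, adjusted p values 0.573 and 0.0848), and Hoxb2 was called without WT replicate 2 (adjusted p = 0.0166).

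Hoxb7, Hoxb8 and Hoxb9, trunk genes, were not called, with log2 fold changes of 0.25, 0.14 and -0.28. Hoxb9 was the most abundant Hox gene in every library except Ednrb-/- replicate 2, where Hoxa5 was higher, at 313, 389, 341, 352 and 226 FPKM in WT replicates 1 to 5 and 407, 195, 194, 291 and 284 FPKM in Ednrb-/- replicates 1 to 5 (log2 fold change -0.28, SE 0.21, adjusted p = 0.409). Ednrb-/- replicates 2 and 3 were the lowest in Hoxb9 and Ednrb-/- replicate 1 the highest. Hoxb13, separated from Hoxb9 by a long stretch without Hox genes, measured 0.0550, 17.5, 0.346, 0.0554 and 0.101 FPKM in WT replicates 1 to 5 and 0.0229, 0, 0, 0.0836 and 0 FPKM in Ednrb-/- replicates 1 to 5. In WT replicate 2, Hoxb9 exceeded Hoxb13 by 22.2-fold, the smallest ratio of any library.

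Cluster C begins with Hoxc4, and in it Hoxc4 and Hoxc5 rose and Hoxc11 and Hoxc12 fell. Hoxc4, a gene of the neck region, measured 45.7, 51.8, 63.9, 49.4 and 56.4 FPKM in WT replicates 1 to 5 and 86.6, 105, 101, 73.8 and 114 FPKM in Ednrb-/- replicates 1 to 5 (log2 fold change 0.83, SE 0.13, adjusted p = 0.00313). Hoxc5, its neighbour, measured 7.05, 12.9, 18.6, 14.2 and 25.2 FPKM in WT replicates 1 to 5 and 27.9, 59.6, 53.2, 27.2 and 40.05 FPKM in Ednrb-/- replicates 1 to 5 (log2 fold change 1.43, SE 0.32, adjusted p = 0.0105). In both genes every Ednrb-/- library lay above every WT library. The deposited Hoxc5 model spans Hoxc6, Hoxc8, Hoxc9 and part of Hoxc10 (5487 bases), and how reads shared by these models were assigned is not stated. Hoxc6, the gene with the highest mean level in the cluster, measured 62.6, 102, 97.6, 88.3 and 74.95 FPKM in WT replicates 1 to 5 and 87.2, 62.99, 77.3, 149 and 91.9 FPKM in Ednrb-/- replicates 1 to 5 and was not called (log2 fold change 0.10, SE 0.21, adjusted p = 0.786). Its highest value was in Ednrb-/- replicate 4 and its lowest in WT replicate 1.

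Further towards the 5′ end, Hoxc8 and Hoxc9 were not called (log2 fold changes -0.33 and -0.71, adjusted p values 0.303 and 0.233). Hoxc10, which marks the lumbar cord and its motor neurons, measured 56.6, 56.2, 12.9, 49.5 and 20.3 FPKM in WT replicates 1 to 5 and 42.0, 4.18, 3.23, 17.7 and 1.79 FPKM in Ednrb-/- replicates 1 to 5 (log2 fold change -2.10, SE 0.76, adjusted p = 0.0741). Ednrb-/- replicate 1 lay among the high WT libraries, WT replicates 3 and 5 lay with Ednrb-/- replicate 4, and Ednrb-/- replicates 2, 3 and 5 were below 5 FPKM. Without Ednrb-/- replicate 1, Hoxc10 was called lower (adjusted p = 0.0148), as were Hoxa10 (adjusted p = 0.0365) and Hoxd9 (adjusted p = 0.021), and the number of Hox genes that fell was 8 in place of 5. With the replicate number as a block, Hoxc10 and Hoxa10 were also called lower (adjusted p = 0.0233 and 0.0292), and 7 Hox genes fell.

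Hoxc11, a lumbosacral gene, measured 6.33, 8.19, 2.27, 3.27 and 1.80 FPKM in WT replicates 1 to 5 and 0.450, 0, 0, 2.49 and 0 FPKM in Ednrb-/- replicates 1 to 5 (log2 fold change -2.39, SE 0.54, adjusted p = 0.0109). Hoxc12 measured 4.41, 12.5, 4.01, 1.78 and 2.80 FPKM in WT replicates 1 to 5 and 0, 0, 0, 0.656 and 0 FPKM in Ednrb-/- replicates 1 to 5 (log2 fold change -2.97, SE 0.43, adjusted p = 0.00276). Hoxc12 was thus at 1.78 FPKM or more in every WT library and had 0 reads in 4 Ednrb-/- libraries, where 0 reads allow at most 0.147 to 0.223 FPKM. WT replicate 2 was the highest library for Hoxc12, and without it the gene was still called. Hoxc13 measured 0.370, 13.6, 1.32, 0.373 and 0.452 FPKM in WT replicates 1 to 5 and 0, 0, 0, 0.225 and 0 FPKM in Ednrb-/- replicates 1 to 5. It was present in each WT library and at 0 in 4 Ednrb-/- libraries, yet only WT replicates 2 and 3 exceeded 0.5 FPKM, so it was not tested.

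Cluster D was the least abundant, with a summed level of 40.7 to 94.4 FPKM in WT and 31.2 to 71.6 FPKM in Ednrb-/- libraries. Hoxd3 measured 5.00, 5.55, 5.69, 6.40 and 6.54 FPKM in WT replicates 1 to 5 and 9.45, 12.9, 13.5, 9.22 and 12.9 FPKM in Ednrb-/- replicates 1 to 5 (log2 fold change 0.92, SE 0.13, adjusted p = 0.00276). Hoxd4, which like its paralogues has its anterior limit in the hindbrain, measured 4.80, 3.71, 5.95, 5.93 and 4.42 FPKM in WT replicates 1 to 5 and 6.60, 10.99, 8.24, 7.75 and 8.78 FPKM in Ednrb-/- replicates 1 to 5 (log2 fold change 0.72, SE 0.16, adjusted p = 0.00976). The lowest Ednrb-/- library exceeded the highest WT library in both. The Hoxd3 model covers 17218 bases of the Hoxd4 model, so the pair may share reads. Hoxd1, at the 3′ end, did not rise: it ranged from 1.79 to 4.82 FPKM in WT and from 0.701 to 2.43 FPKM in Ednrb-/- libraries and was not called (log2 fold change -0.61, adjusted p = 0.147).

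Hoxd8 was not called (log2 fold change -0.50, adjusted p = 0.278). Hoxd9, the gene with the highest mean level in the cluster, measured 23.8, 29.8, 6.07, 26.7 and 12.3 FPKM in WT replicates 1 to 5 and 24.6, 0.431, 3.40, 9.21 and 0.661 FPKM in Ednrb-/- replicates 1 to 5 (log2 fold change -2.14, SE 0.84, adjusted p = 0.0988). Ednrb-/- replicate 1 matched the high WT libraries, whereas Ednrb-/- replicates 2 and 5 were below 1 FPKM. Hoxd10, expressed in the lumbar cord, measured 26.7, 21.1, 7.49, 20.7 and 9.75 FPKM in WT replicates 1 to 5 and 10.4, 0, 0.662, 9.34 and 0.356 FPKM in Ednrb-/- replicates 1 to 5 (log2 fold change -2.85, SE 0.84, adjusted p = 0.0352). WT replicates 3 and 5 lay beside Ednrb-/- replicates 1 and 4, and the call was lost in 8 of 20 alternative analyses. One of these left out WT replicate 2 (adjusted p = 0.0605), after which 4 Hox genes fell and 12 rose.

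Hoxd11 measured 3.20, 4.86, 1.18, 1.55 and 1.34 FPKM in WT replicates 1 to 5 and 0.432, 0, 0.117, 1.21 and 0 FPKM in Ednrb-/- replicates 1 to 5 (log2 fold change -1.80, SE 0.42, adjusted p = 0.0126). Ednrb-/- replicate 4 lay just above the lowest WT library and the other 4 Ednrb-/- libraries were below 0.5 FPKM. Hoxd12 measured 1.51, 6.02, 0.678, 0.289 and 0.614 FPKM in WT replicates 1 to 5 and 0.120, 0, 0, 0.558 and 0 FPKM in Ednrb-/- replicates 1 to 5 and was not called (log2 fold change -1.47, SE 0.51, adjusted p = 0.0649). Its adjusted p was 0.0372 with a pseudocount of 0.1. Hoxd13 measured 0.513, 4.71, 0.384, 0.0739 and 0.149 FPKM in WT replicates 1 to 5 and 0.0814, 0, 0, 0.0990 and 0 FPKM in Ednrb-/- replicates 1 to 5. WT replicate 2 was highest in Hoxd11, Hoxd12 and Hoxd13.

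**Figure D2:**
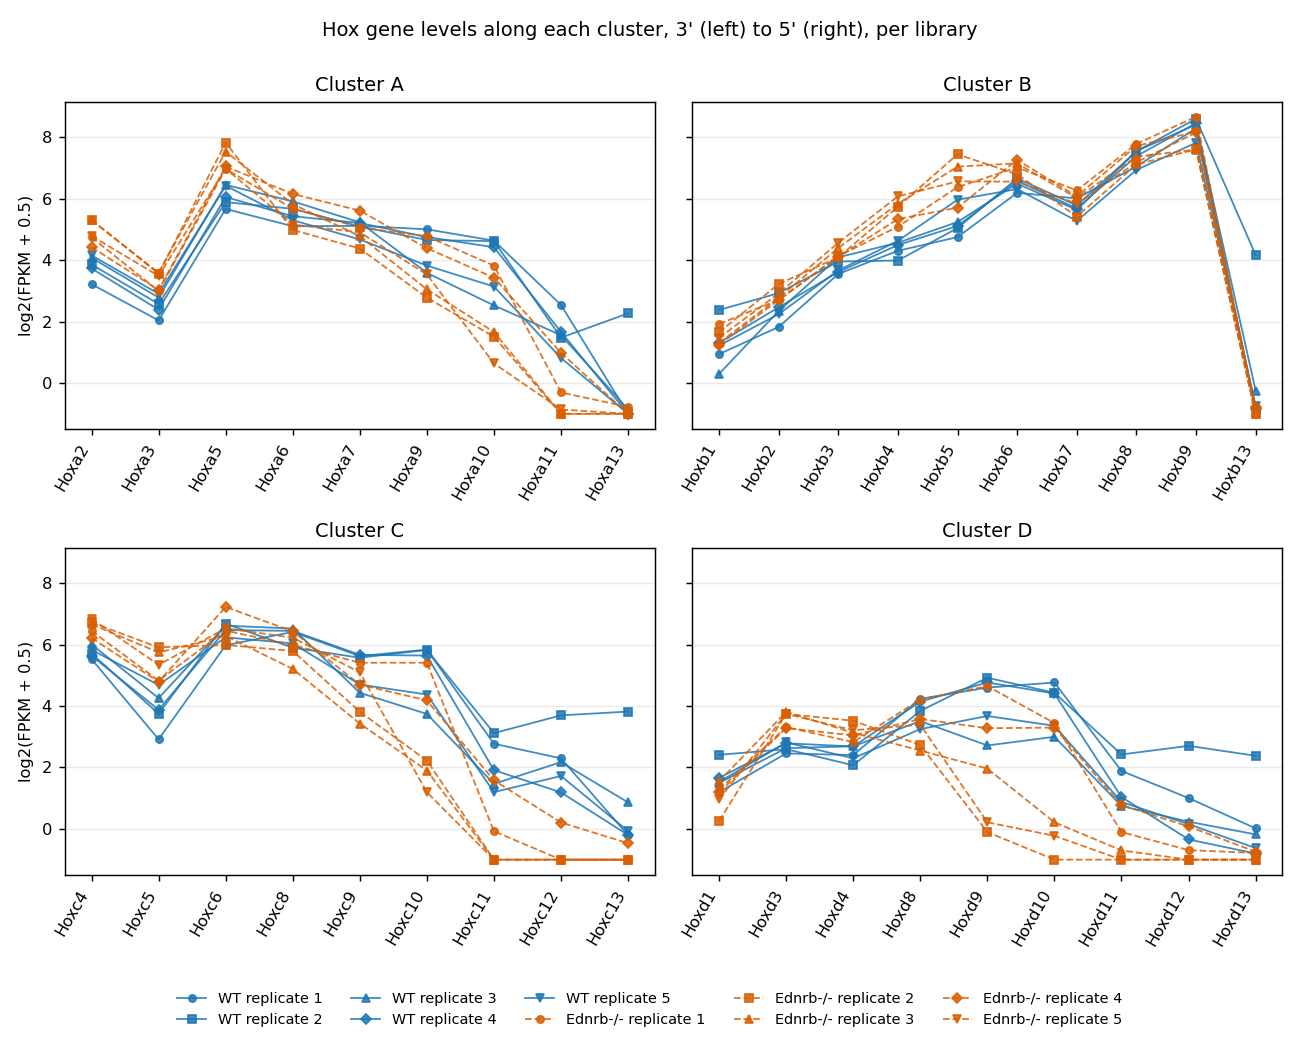
Level of the Hox genes reported singly, log2(FPKM + 0.5), in gene order from 3′ to 5′ in the 4 clusters; each line is 1 library, WT solid and Ednrb-/- dashed. Ednrb-/- lines lie above WT lines from Hoxa2 to Hoxa5, from Hoxb4 to Hoxb5 with 1 crossing, at Hoxc4, Hoxc5, Hoxd3 and Hoxd4, and the lines of Ednrb-/- replicates 2, 3 and 5 drop lowest after group 9.

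Levels were also read along each cluster within a library, which does not depend on scaling between libraries. From Hoxc9 to Hoxc10 the level hardly changed in WT explants, with a ratio of Hoxc9 to Hoxc10 of 0.838 to 1.63. In Ednrb-/- explants the ratio was 1.00, 3.25, 3.18, 1.44 and 18.9 in replicates 1 to 5. The step from Hoxd8 to Hoxd9 gave ratios of 0.465 to 1.79 in WT and of 0.734, 14.2, 1.58, 1.24 and 15.1 in Ednrb-/- replicates 1 to 5. Ednrb-/- replicates 2 and 5 had the steepest drop from Hoxd8 to Hoxd9, whereas the ratios of replicates 1 and 4 lay within the WT range at both places. At the 3′ side, Hoxa5 exceeded Hoxa6 by 1.16 to 2.19-fold in WT and by 1.87 to 7.26-fold in Ednrb-/- libraries.

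The position of each library was summarised as the mean paralogous group number, weighted by FPKM. Over all 4 clusters it was 7.62, 7.65, 7.06, 7.41 and 6.86 in WT replicates 1 to 5 and 7.01, 5.98, 6.07, 6.79 and 6.42 in Ednrb-/- replicates 1 to 5. The genotypes overlapped, because WT replicate 5 lay below Ednrb-/- replicate 1. The WT mean was 7.32 ± 0.35 (SD, n = 5), or 7.24 without WT replicate 2, and the Ednrb-/- mean was 6.45 ± 0.45 (SD, n = 5). No test was made of this summary, since its members were chosen with results of these data known.

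The clusters placed the libraries in nearly the same order. Ednrb-/- replicates 2, 3 and 5 held the 3 most anterior ranks in each of the 4 clusters, and WT replicates 1, 2 and 4 held the 3 most posterior. WT replicates 3 and 5 and Ednrb-/- replicates 1 and 4 filled the ranks between, from 4 to 7. The spread was widest in cluster D, from 4.38 in Ednrb-/- replicate 2 to 8.61 in WT replicate 2. It was narrowest in cluster B, from 6.71 in Ednrb-/- replicate 2 to 7.89 in WT replicate 2. The 4 orders are a description of the same 10 libraries and not independent of each other.

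**Figure D3:**
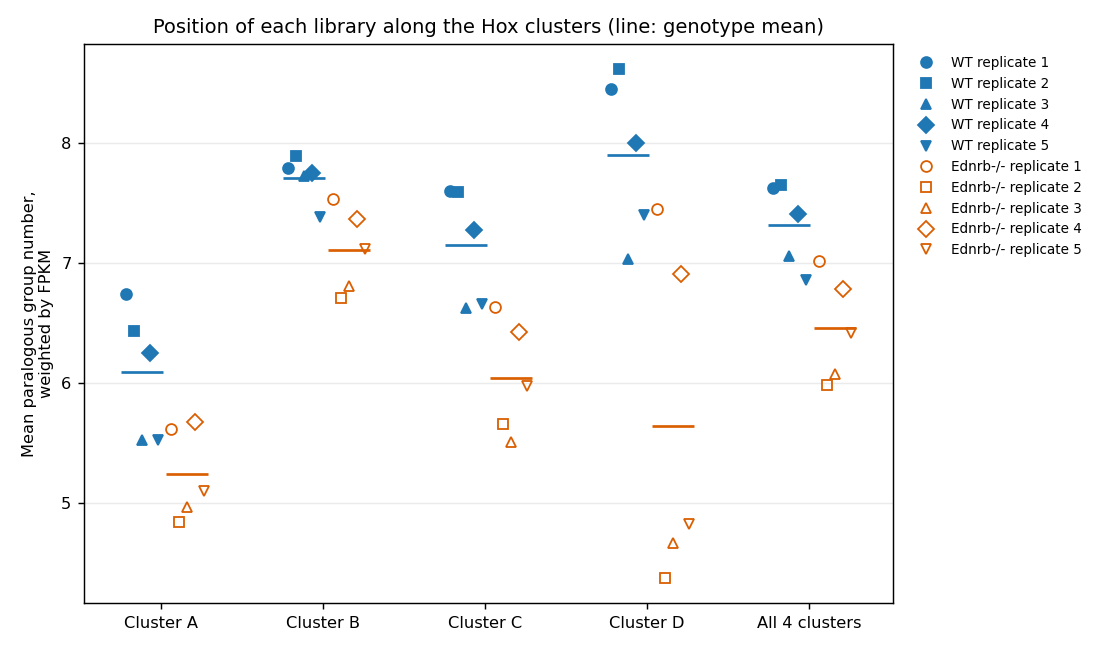
Mean paralogous group number weighted by FPKM (vertical axis, no unit) for each library in each cluster and over all 4 clusters, WT filled and Ednrb-/- open, with a line at the mean of each genotype. Over all clusters WT libraries lie between 6.86 and 7.65 and Ednrb-/- libraries between 5.98 and 7.01, and cluster D spreads most.

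Split into group classes, the summed level of groups 1 to 5 was 191.0, 236, 298, 243 and 315 FPKM in WT replicates 1 to 5 and 440.0, 727, 638, 402 and 539 FPKM in Ednrb-/- replicates 1 to 5, with no overlap. Groups 6 to 9 summed to 730.4 to 1092 FPKM in WT and 682 to 1179 FPKM in Ednrb-/- libraries and overlapped widely. Groups 10 to 13 summed to 129, 175, 38.3, 101 and 46.9 FPKM in WT replicates 1 to 5 and to 67.6, 6.53, 6.68, 44.1 and 3.25 FPKM in Ednrb-/- replicates 1 to 5. Here the sums of Ednrb-/- replicates 1 and 4 fell within the WT range and those of replicates 2, 3 and 5 below it. Group 10 genes made up most of the sums of Ednrb-/- replicates 1 and 4. In Ednrb-/- replicate 1, Hoxa11, Hoxc11, Hoxd11 and Hoxc12 lay below every WT library. Of these genes, only Hoxc12 did so in Ednrb-/- replicate 4.

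The highest group with a gene at 1 FPKM or more was 12, 13, 13, 12 and 12 in WT replicates 1 to 5 and 10, 10, 10, 11 and 10 in Ednrb-/- replicates 1 to 5. The genotypes met at a level of 0.5 FPKM, where Ednrb-/- replicate 4 reached group 12, and at 2 FPKM, where WT replicate 4 and Ednrb-/- replicate 4 both reached group 11. Group 13 genes summed to 40.2 FPKM in WT replicate 2 and to 0.502 to 2.10 FPKM in the other WT libraries. In Ednrb-/- libraries they summed to 0 to 0.407 FPKM. Of the 12 members of groups 10 to 13, WT replicate 2 held the highest value for 8 and WT replicate 1 for 4.

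Spread among libraries of a genotype was widest in groups 10 to 13. The median coefficient of variation of a gene was 24.4% in WT and 22.1% in Ednrb-/- libraries for groups 1 to 5 and 19.1% and 33.0% for groups 6 to 9. For groups 10 to 13 it was 74.4% in WT, 62.6% in WT without replicate 2, and 171% in Ednrb-/- libraries, where many of the values are 0.

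**Figure D4:**
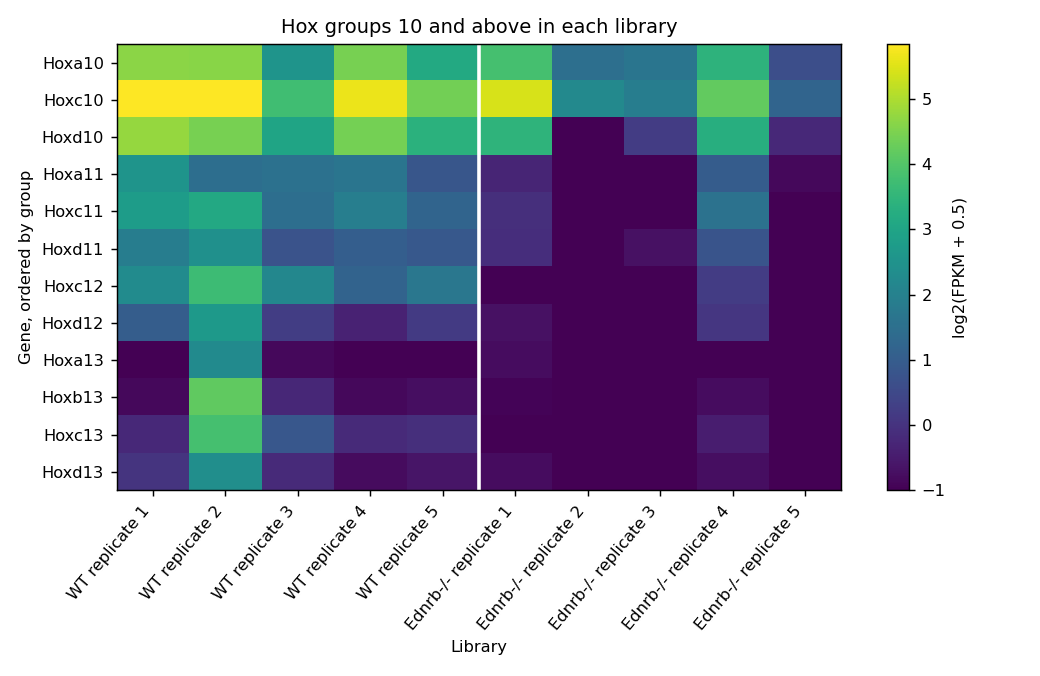
Level of the 12 genes of groups 10 to 13 as log2(FPKM + 0.5) (colour) in each library (columns, WT left of the white line, Ednrb-/- right), with genes ordered by group. Group 13 genes stand out in WT replicate 2, where they sum to 40.2 FPKM, and Ednrb-/- replicates 2, 3 and 5 are near the floor from group 11 on.

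The promoters of the genes that rose were read for short motifs, since retinoic acid acts on 3′ Hox genes through receptor half-sites. The RefSeq table of GRCm38.p6 held an entry for 22 of 38 members, and the 250 bases before the start were searched on both strands, with the first entry of the table used for each gene. The half-site AGGTCA was present in 6 of 22 Hox promoters (27.3%) and in 13.8% of 27025 promoters of the same length. It was present in 4 of the 7 with an entry among the genes that rose and in 1 of the 3 among those that fell. TTTATG, the core bound by Cdx and posterior Hox proteins, was present in 5 of 22 (22.7%) against 11.1%, and TGATNNAT, a Hox and Pbx composite core, in 3 of 22 (13.6%) against 7.91%. Hoxa10 and Hoxd11 have 1 further entry each, not counted here, and that of Hoxd11 holds TGATNNAT. The 4 promoters of risen genes with the half-site are printed 5′ to 3′ on the strand of the gene, with matches to AGGTCA (here as its reverse complement) and to TTTATG in capitals. In Hoxd3 the matches overlap. Of the genes that fell, Hoxd10 holds AGGTCA and Hoxd11 holds TTTATG. The promoter of Hoxa11, which fell and holds none of the 3, is also printed, chosen after the matches were seen.
Hoxb4: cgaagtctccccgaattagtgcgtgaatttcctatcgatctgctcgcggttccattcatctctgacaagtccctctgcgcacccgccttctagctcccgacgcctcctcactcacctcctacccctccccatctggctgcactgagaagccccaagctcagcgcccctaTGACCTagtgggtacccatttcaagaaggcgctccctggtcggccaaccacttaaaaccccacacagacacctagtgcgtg
Hoxc4: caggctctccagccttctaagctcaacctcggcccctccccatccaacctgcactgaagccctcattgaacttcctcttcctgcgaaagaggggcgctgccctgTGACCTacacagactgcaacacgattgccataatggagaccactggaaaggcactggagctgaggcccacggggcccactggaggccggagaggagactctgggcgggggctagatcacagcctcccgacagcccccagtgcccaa
Hoxd3: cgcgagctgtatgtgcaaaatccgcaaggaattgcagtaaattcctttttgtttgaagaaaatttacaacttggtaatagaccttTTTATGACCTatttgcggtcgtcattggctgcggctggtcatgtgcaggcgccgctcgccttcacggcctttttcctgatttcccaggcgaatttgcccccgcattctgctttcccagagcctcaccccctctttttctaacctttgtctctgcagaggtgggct
Hoxd4: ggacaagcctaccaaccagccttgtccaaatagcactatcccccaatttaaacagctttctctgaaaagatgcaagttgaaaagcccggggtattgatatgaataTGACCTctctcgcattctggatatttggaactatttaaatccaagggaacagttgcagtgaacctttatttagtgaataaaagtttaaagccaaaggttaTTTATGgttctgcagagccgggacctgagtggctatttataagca
Hoxa11: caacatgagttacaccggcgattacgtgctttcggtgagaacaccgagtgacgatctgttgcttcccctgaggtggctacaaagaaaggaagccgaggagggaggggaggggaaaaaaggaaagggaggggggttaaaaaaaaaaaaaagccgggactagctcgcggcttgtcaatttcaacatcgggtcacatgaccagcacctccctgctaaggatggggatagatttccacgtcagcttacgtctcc
They lie at chr11:96318017-96318266 (+ strand), chr15:103034145-103034394 (+ strand), chr2:74711743-74711992 (+ strand), chr2:74721728-74721977 (+ strand) and chr6:52245811-52246060 (- strand) of GRCm38.p6. A match is a description of letters, and binding was not measured.

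Hox proteins bind DNA together with TALE homeodomain partners. Of 9 tested partner genes, 4 rose and 0 fell, with a median log2 fold change of 0.28. Over all genes tested, 6.53% rose and 13% fell. Pbx3, which had the lowest p of the list, rose from 33.6 to 40.1 FPKM in WT to 46.5 to 65.6 FPKM in Ednrb-/- libraries (log2 fold change 0.51, SE 0.10, adjusted p = 0.00589). Meis1 and Meis2 rose by 0.33 and 0.40 on the log2 scale (adjusted p = 0.0174 and 0.0184), and Meis3, named after its value was seen, by 0.37 (adjusted p = 0.0231). The calls of Meis1, Meis2 and Meis3 were each lost in at least 1 alternative (highest adjusted p 0.0514, 0.0528 and 0.0846), whereas that of Pbx3 was kept in all 20.

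Of 10 tested regulators upstream of the clusters, 0 rose and 1 fell, with a median log2 fold change of 0.11. The shares over all genes tested were 6.53% higher and 13% lower, so this count does not set the list apart. The gene that fell was Rarg, a retinoic acid receptor, from 3.72 to 6.64 FPKM in WT to 0.971 to 2.08 FPKM in Ednrb-/- libraries (log2 fold change -1.61, SE 0.21, adjusted p = 0.00276). Rarb and Gdf11, the next in order of p, were not called (log2 fold changes 0.45 and 0.29, adjusted p values 0.206 and 0.181). Cdx2, a caudal homeobox gene that activates posterior Hox genes, was too low to test at 0, 0.915, 0.422, 0.108 and 0.590 FPKM in WT replicates 1 to 5 and 0.134, 0, 0, 0.136 and 0 FPKM in Ednrb-/- replicates 1 to 5. WT replicate 2 held the highest value of Cdx2 and, among genes named after their values were seen, of Cdx4 (1.65 FPKM) and of the retinoic acid-degrading enzyme Cyp26a1 (2.08 FPKM). The tailbud genes T and Wnt3a fell (log2 fold changes -2.71 and -1.18, adjusted p = 0.0321 and 0.0325), 2 of 6 tested, and T was highest in WT replicate 5 at 29.1 FPKM. Both calls were lost in several alternatives (highest adjusted p 0.0841 and 0.103).

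Of 14 tested noncoding and neighbouring genes of the clusters, 5 rose and 1 fell, with a median log2 fold change of 0.47. Among all genes tested, 6.53% rose and 13% fell. Haglr, an antisense RNA beside Hoxd1 and Hoxd3, measured 8.60, 7.14, 9.20, 8.99 and 9.06 FPKM in WT replicates 1 to 5 and 12.8, 25.2, 18.9, 13.02 and 19.4 FPKM in Ednrb-/- replicates 1 to 5 (log2 fold change 0.97, SE 0.17, adjusted p = 0.00448). Hoxaas2 and Hotairm1, antisense RNAs of the 3′ part of cluster A, rose by 1.36 and 0.79 on the log2 scale (adjusted p = 0.0042 and 0.0052). Both overlap models on the opposite strand, Hoxaas2 by 503 bases of Hoxa3, and without strand such reads cannot be told apart. Evx1, a homeobox gene beyond the 5′ end of cluster A, rose (log2 fold change 1.00, SE 0.27, adjusted p = 0.0252), and its partner Evx2 beyond cluster D was not called (log2 fold change 0.37, adjusted p = 0.284). The call of Evx1 was lost in 7 of 20 alternatives. Evx1 is also a gene of spinal interneurons, and neuron markers rose in the same libraries. Whether these changes are linked was not tested.

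Among microRNA models, Mir196a-1, which lies between Hoxb9 and Hoxb13, measured 26.2, 15.8, 26.8, 28.2 and 16.7 FPKM in WT replicates 1 to 5 and 15.3, 0, 0.535, 10.2 and 3.46 FPKM in Ednrb-/- replicates 1 to 5. It was called lower (log2 fold change -2.81, SE 0.82, adjusted p = 0.0346), a call lost in 10 of 20 alternatives, and it was named after its value was seen. Mir196a-2, in cluster C, encodes the same mature sequence and was not called (log2 fold change 0.06, adjusted p = 0.973). Mir10a, Mir10b and Mir615 were not called (adjusted p = 0.399, 0.845 and 0.279). These values count fragments over the hairpin locus in a standard RNA library and do not measure the mature microRNAs printed above. Hoxb8, whose transcript carries the long miR-196a match, was not called (log2 fold change 0.14, adjusted p = 0.605).

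Genes that mark other levels of the axis were read in the same libraries. Otx2 and Six3, which mark the fore- and midbrain, were below 0.1 FPKM in all 10 libraries. Not all of the list of fore- and midbrain factors was low. Over all libraries Pax2 measured 18.9 to 41.7 FPKM, Pax8 6.32 to 12.9 FPKM and En1 1.84 to 4.41 FPKM. Of 6 tested fore- and midbrain factors 1 rose, Gbx2 (log2 fold change 0.87, adjusted p = 0.0376). Gbx2 is expressed at the front of the hindbrain, and its call was lost in 11 of 20 alternatives. Of 5 tested hindbrain motor factors, Gata3 fell (log2 fold change -0.88, adjusted p = 0.0482) and 0 rose. For both lists, the shares over all genes tested were 6.53% higher and 13% lower. The median log2 fold change of the 5 was 0.24, so Gata3 did not show the direction of the list. The call of Gata3 was lost in 12 of 20 alternatives.

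Cell types other than neural tube also express Hox genes, and their markers moved with genotype. The summed level of 11 smooth muscle and mesenchyme markers, among them Fn1, Tagln and Myl9, was 1634, 473.7, 3272, 2559 and 1993 FPKM in WT replicates 1 to 5. In Ednrb-/- replicates 1 to 5 it was 345, 196, 69.7, 364 and 53.8 FPKM. WT replicate 2, with the most posterior Hox profile, was the lowest WT library in these markers. WT replicate 3, the highest in them, had the lowest WT sum of groups 10 to 13 at 38.3 FPKM. The order did not hold throughout, as this sum was 46.9 FPKM in WT replicate 5 and 101 FPKM in WT replicate 4. Ednrb-/- replicates 1 and 4, whose summed level of groups 10 to 13, mostly from group 10, fell within the WT range, were the highest Ednrb-/- libraries in these markers. Among Ednrb-/- libraries the highest marker sums thus went with the highest sums of groups 10 to 13. That direction is the opposite of the one between WT replicates 2 and 3. Crest, glia and melanoblast markers summed to 154 to 299 FPKM in WT and 61.6 to 97.2 FPKM in Ednrb-/- libraries, with Pmel and Sox10 among those that fell. These sums include the targeted gene Ednrb, at 43.8 to 60.7 FPKM in WT and 2.35 to 11.7 FPKM in Ednrb-/- libraries. The part of mesenchyme and crest cells in the Hox differences was not tested.

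Neural tube progenitor markers summed to 356 to 626 FPKM in WT and 603 to 732 FPKM in Ednrb-/- libraries, with 1 of 7 higher (Fabp7) and 1 lower (Nes). For this and the lists below, the shares over all genes tested were 6.53% higher and 13% lower. The call of Fabp7 was lost in 9 of 20 alternatives. Neuron markers summed to 896 to 1213 FPKM in WT and 1476 to 1702 FPKM in Ednrb-/- libraries without overlap, led by Elavl2, Stmn2 and Elavl4. The limb-level mesoderm genes Tbx4, Tbx5 and Pitx1 were at or below 0.0886 FPKM in all libraries. Of 3 tested somite and lateral plate markers 1 fell, Prrx1 (log2 fold change -1.70, adjusted p = 0.0155), with Uncx and Tcf15 not called. In surface ectoderm and gut markers 3 of 6 tested fell (Krt19, Krt18 and Krt8). Epcam, Cdh1 and Sox17 of the same list were below 1 FPKM in all libraries and were not tested. The other 3 tested, Shh, Foxa2 and Foxa1, which the floor plate also expresses, had log2 fold changes of 1.41, 1.17 and 1.03 and were not called. Without Ednrb-/- replicate 1 they were called higher (adjusted p = 0.0247, 0.0251 and 0.0386 in limma). For blood and endothelium only Kdr could be tested, and it fell, while the haemoglobin genes Hbb-y, Hbb-bh1 and Hba-a1 were at 0 in all libraries. Whether explants of the genotypes were cut at the same axial level cannot be told apart from an effect of genotype with these data.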

How the data were processed

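RNA from 5 WT and 5 Ednrb-/- explant cultures was sequenced after TRIzol extraction with standard Illumina library preparation, per the labels' protocols. Tools listed in the submitters' processing notes are fastp, HISAT2 2.0.5 and featureCounts 1.5.0-p3, with the build mm10, whereas identifiers and coordinates in the table belong to the C57BL/6NJ assembly. Coordinates are printed as deposited and were not converted. Strand use, filters and pooling were not stated in the sources read. The values used are FPKM as deposited by the authors, 1 column per library, with 0 columns of per-sample values left unused. Multiplied by model length, 100% of values were whole multiples of 1 read within 0.01 read, which gave the read numbers.

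Genotypes were compared with limma-trend (limma 3.58.1, R 4.3.3) on log2(FPKM + 0.5), with genotype as the only term and all 10 libraries. Genes entered with at least 0.5 FPKM in at least 5 of 10 libraries, and p values are two-sided and Benjamini-Hochberg adjusted over 15156 genes with a threshold of 0.05. Fold changes understate the change of low genes. "Rose" and "fell" are used of called genes. The fit was tested on simulated data. The members and gene lists were chosen with earlier results of these data known. Named genes are, per cluster, the 3 with the lowest p, the most abundant, and every gene of groups 10 to 13 reaching 1 FPKM in any library, and up to 3 of each list by p, with Ednrb, Evx1, Evx2 and Cdx2 always. Other genes of these lists that are named, such as Hoxb5os, Otx2, Tbx4 and the haemoglobin genes, were named after their values were seen. A few measured genes, including 1 Hox member, enter the counts and are not reported singly here. Nothing in the labels says that libraries of a genotype came from separate litters, so p values measure the spread between these libraries. The spans of 22 members meet another model, those of 10 another member and those of 13 a model on the opposite strand. Alternatives were other pseudocounts, filters, scalings, library weights, a replicate block, voom on recovered reads and leaving out each library.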

Additional observations from a re-analysis of the deposited data

Results flagged for a closer look

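A library was marked where its distance to the nearest other library of its genotype made up most of that genotype's range (Dixon's ratio, 95% critical value for 5 samples). Of 76 groups, 38 genes in each genotype, 15 were marked. Chance marks about 1 in 20 groups of normally distributed values, a rate that does not hold for groups with many values at 0. The ratio is 1.0 by construction where the other 4 libraries are at 0, as in Ednrb-/- libraries for Hoxa13, Hoxc12 and Hoxc13. WT replicate 2 was marked 7 times, as the highest WT library, with ratios of 0.987 for Hoxa13, 0.983 for Hoxb13, 0.754 for Hoxc12, 0.928 for Hoxc13, 0.714 for Hoxd1, 0.787 for Hoxd12 and 0.905 for Hoxd13. Ednrb-/- replicate 4 was marked 6 times, as the highest Ednrb-/- library, with ratios of 0.791 for Hoxa11, 0.726 for Hoxb13, 0.82 for Hoxc11, 1.0 for Hoxc12, 1.0 for Hoxc13 and 0.786 for Hoxd12. In Hoxa13, Ednrb-/- replicate 1 was the only library of its genotype with reads (ratio 1.0). In Hoxa7, WT replicate 5 was low (ratio 0.718). The genes share libraries, so these marks are not independent of each other.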

How the results depend on the processing

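Over the alternatives, 13 of the 16 called Hox genes kept their call in every analysis, 9 higher and 4 lower, and 0 called genes changed sign, while Hoxb3, Hoxb6 and Hoxd10 lost theirs in at least 1. The 4 lower genes (Hoxa11, Hoxc11, Hoxc12 and Hoxd11) passed the filter mainly through WT libraries, so their kept calls are no sign of stability. Leaving out each library in turn gave 9 to 12 higher and 4 to 8 lower Hox genes, the 8 being without Ednrb-/- replicate 1. Other settings gave 10 to 12 higher and 4 to 7 lower. With the replicate block 11 rose and 7 fell; same-numbered libraries deviated together weakly or not at all (r from -0.163 to 0.153), so the numbers were not taken as pairs. Of the uncalled genes reported singly, Hoxa10, Hoxb2, Hoxc10, Hoxd9 and Hoxd12 were called in at least 1 alternative, and 3 changed sign. Leaving out each library gave log2 fold changes of -0.0742 to 0.2184 for Hoxa6 (also -0.0205 without WT replicate 1), of -0.2822 to 0.026 for Hoxa7 (positive without Ednrb-/- replicate 2) and of -0.0838 to 0.2257 for Hoxc6 (also -0.0058 without WT replicate 1). The lowest values of Hoxa6 and Hoxc6 were those without Ednrb-/- replicate 4. The cause was not tested. Members of groups 11 to 13 rest on few reads, 233 for Hoxd13 summed over 10 libraries, so low values there do not show that a gene is off.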

Other observations

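Hoxa4 is not among the 38 members, because no model carries that symbol. A model without a symbol, MGP_C57BL6NJ_G0031179 on chromosome 6 from 52566022 to 52568088 of the C57BL/6NJ assembly (minus strand), has a deposited description that names Hox-A4. Its place lies within the Hoxa3 model. It measured 5.54, 7.70, 10.1, 7.05 and 20.0 FPKM in WT replicates 1 to 5 and 24.9, 69.8, 53.8, 17.7 and 40.3 FPKM in Ednrb-/- replicates 1 to 5, and it rose (log2 fold change 1.96, SE 0.40, adjusted p = 0.00712 in limma). The genotypes touched at WT replicate 5 and Ednrb-/- replicate 4, the pair of libraries that also touched in Hoxb5. The call was kept in all 20 alternatives.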
